A study of Homo sapiens with 2 samples.

Results

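The NRF2 pathway and the ferritin genes were examined in ARP1 cells, a human multiple myeloma (MM) line, carrying a doxycycline (Dox)-inducible lentiviral short hairpin against SRD5A1. The 10 genes were chosen by name from the 57485 genes of each table, and all 10 were found. They are NFE2L2, which encodes the transcription factor NRF2, its inhibitor KEAP1, the enzymes HMOX1, NQO1, TXNRD1, SRXN1 and PRDX1, the ferritin subunits FTH1 and FTL, and the autophagy receptor SQSTM1. The data were 1 library of hairpin-carrying cells labelled untreated and 1 labelled treated with Dox, so no difference has a replicate check and p-values are not printed. Both libraries carry the hairpin. The sample titles and the series design name SRD5A1 as its target, whereas SRD5A2 stands in the genotype field of the library labelled with Dox. The Dox dose and time for these libraries are not given in the sources used here, and neither is whether the line was 1 clone or a mixed pool. No library of Dox-treated cells without the hairpin was analysed here, so the hairpin and Dox itself cannot be told apart.

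NRF2 is the main transcription factor of the oxidative stress response. In resting cells KEAP1 binds it and presents it to a CUL3 ubiquitin ligase for degradation. Electrophiles and oxidants modify cysteines of KEAP1, so that NRF2 accumulates, pairs with small MAF proteins and binds antioxidant response elements of genes for thiol reduction, quinone detoxification, heme breakdown and iron storage. SQSTM1 can bind KEAP1 and carry it into autophagy, and SQSTM1 is itself an NRF2 target. Much of this control acts on protein stability, which RNA levels do not measure. Plasma cells and MM cells, which fold large amounts of disulfide-bonded protein, are known to depend on such redox enzymes.

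The tables held 45918570 expected counts without Dox and 48728927 with Dox. The 8 plasma cell markers were all above 1 FPKM (fragments per kilobase of effective transcript length, scaled to the size of the library), with summed levels of 2398.37 and 2304.81 FPKM, and TNFRSF17 (log2 ratio 1.06, defined below) and SLAMF7 (1.40) were past 2-fold higher with Dox. The 12 markers of other cell types summed to 12.58 and 7.51 FPKM, 4 of them reached 1 FPKM in a library, and CD3D and PPBP were at 0 counts in both. KRT18, an epithelial keratin at 6.0 and 1.44 FPKM, accounted for most of the gap between these sums. SRD5A1, the targeted gene, was listed at 13.04 FPKM without Dox and 25.88 FPKM with Dox, which goes against a knockdown by Dox. Every direction below therefore rests on the labels of the libraries. Log2 ratios were taken as the FPKM with Dox over the FPKM without Dox, each plus a pseudocount of 0.1, and negative values mean lower with Dox. The pseudocount understates the change of low genes. The intervals given are 95% Clopper-Pearson intervals of the counts and cover counting error only. A gene was tested if it reached 1 FPKM in at least 1 library, which 14859 genes did, and called if it was past 2-fold. Among these, 17.0% were called in the higher direction with Dox and 6.41% in the lower, and the median log2 ratio was 0.15. When the FPKM were divided by the TMM factors of edgeR, the shares were 13.1% and 10.3% and the median of all tested genes moved to -0.05, so each log2 ratio below is about 0.2 lower under that scaling. In such bulk RNA, fewer cells of a kind and less RNA per cell cannot be told apart.

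All 10 genes passed the filter in both libraries. None of the 10 was called higher and 2 were called lower, PRDX1 and NQO1, beside the 17.0% and 6.41% of all tested genes. With the TMM factors, SRXN1 and HMOX1 also passed 2-fold, which made 4 of 10 lower beside 10.3% of all tested genes. The median log2 ratio of the 10 genes was -0.47, beside 0.15 for all tested genes, and 6 of the 10 were below 0, beside 41.5% of all tested genes. The 10 genes together held 0.146% of the counts without Dox and 0.124% with Dox. The exact test of edgeR needed an assumed between-replicate coefficient of variation, which was set to 0.4. Its calls required an FDR under 0.05 together with a change past 2-fold. It called 0 of the 10 genes, beside 0.833% of the 19934 genes it tested. It also called 0 of the 10 with DESeq2 size factors, beside 0.823% of all genes, and with no filter on low counts, beside 0.465%. With an assumed coefficient of 0.2 it called 4 of them, HMOX1, NQO1, PRDX1 and SRXN1, all lower, beside 15.5% of all genes. That share takes both directions together, with 1957 genes called higher and 1132 lower. Such calls set 1 library against another and are no test of Dox.

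**Figure D1:**
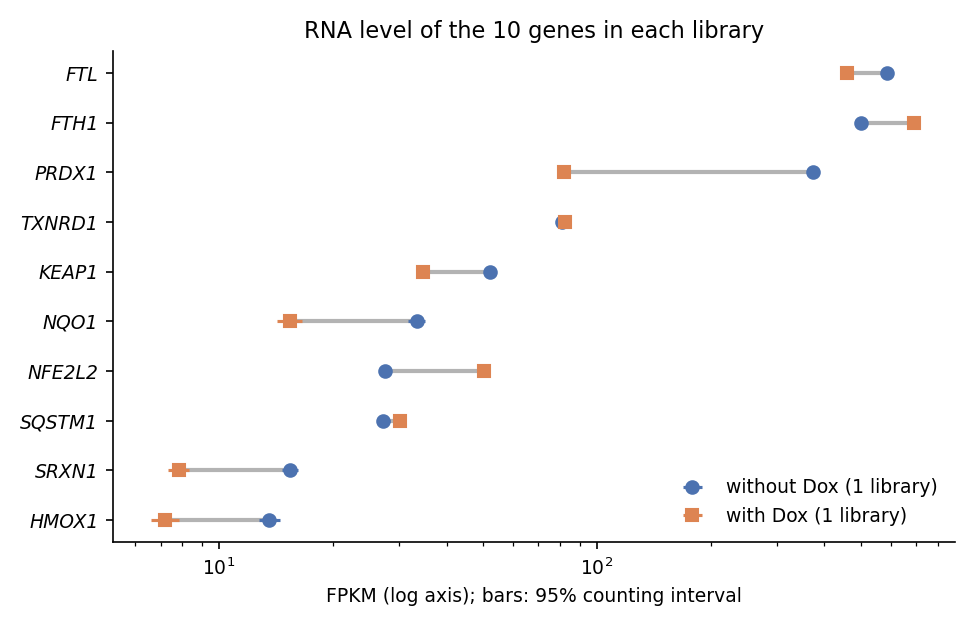
RNA level (FPKM, log axis) of the 10 genes in the library without Dox (circles) and with Dox (squares), with 95% counting intervals that are mostly narrower than the symbols. PRDX1 spans the widest gap, from 374.10 to 81.88 FPKM, while TXNRD1 lies at 81.07 and 82.48 FPKM.

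The regulators of the pathway were listed in opposite directions. NFE2L2 (ENSG00000116044.15, GRCh38 chromosome 2 from 177227595 to 177392697, minus strand) was at 27.53 FPKM without Dox and 50.36 FPKM with Dox, from 2935.39 and 5842.67 expected counts. Its log2 ratio was 0.87 (0.80 to 0.93), under the 2-fold limit, and 20.0% of the tested genes had a higher ratio. KEAP1 (ENSG00000079999.13, chromosome 19 from 10486120 to 10503741, minus strand) was at 52.02 FPKM without Dox and 34.63 FPKM with Dox, a log2 ratio of -0.59 (-0.64 to -0.53). The level of NFE2L2 was thus below that of KEAP1 without Dox and above it with Dox. The ratio of NFE2L2 to KEAP1 in FPKM was 0.529 (0.506 to 0.554) without Dox and 1.45 (1.40 to 1.51) with Dox, and this ratio within a library does not depend on scaling between libraries. Their mean transcript lengths in the tables, which move with the transcripts that reads were assigned to, differed by 2.40% and 2.79% between the libraries. A sense-overlapping transcript in the NFE2L2 locus, AC074286.1, was listed with 98.80 and 285.33 counts.

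The core of the antioxidant response element, TGACNNNGC, was searched on both strands in the RefSeq promoter windows, which run from 250 bases before to 50 bases after each annotated start. Of all 35116 windows, 13.3% held it. Windows were found for 7 of the 10 genes, that is for all but HMOX1, PRDX1 and FTH1, and 3 of their 12 windows held the core. These 3 belong to KEAP1 and TXNRD1, and their matches are shown because the first gene is the inhibitor and the second a classical target of NRF2. The capitals mark the 9 bases of the core, read on the strand of the gene, so that a match on the other strand reads GCNNNGTCA.
KEAP1, chr19:10502806-10502835, minus strand: acttttattgTGACACGGCgggcgcccggc
KEAP1, chr19:10502783-10502812, minus strand: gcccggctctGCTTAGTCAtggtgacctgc
TXNRD1, chr12:104215670-104215699, plus strand: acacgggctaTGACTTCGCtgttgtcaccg
TXNRD1, chr12:104215761-104215790, plus strand: gcgtccttcgGCTCCGTCAgttcccacagg
TXNRD1, chr12:104286920-104286949, plus strand: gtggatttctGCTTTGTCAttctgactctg
The coordinates are those of GRCh38.p14. A match is a stretch of letters and not a measured binding site. Sequence outside these windows was not searched, so a gene without a match here may still hold the core elsewhere. Among a list of 38 other NRF2 target genes, 28 had windows, and 12 of their 35 windows held the core.

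The thiol-reducing enzymes gave the largest difference of the 10 genes. PRDX1 (ENSG00000117450.13, chromosome 1 from 45511036 to 45523047, minus strand), a cytosolic peroxiredoxin that reduces hydrogen peroxide, was at 374.10 FPKM without Dox and 81.88 FPKM with Dox, from 13071.48 and 3049.37 counts. It was thus 4.56-fold lower with Dox, a log2 ratio of -2.19 (-2.25 to -2.13), and 0.868% of the tested genes had a lower ratio. Its rank by FPKM among all genes went from 270 to 1313. MMACHC, which overlaps PRDX1 on the opposite strand, was listed with 1221.52 and 1126.63 counts.

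SRXN1 (ENSG00000271303.1, chromosome 20 from 646615 to 653370, minus strand) encodes sulfiredoxin, which repairs overoxidized peroxiredoxins. It was at 15.41 FPKM without Dox and 7.82 FPKM with Dox, a log2 ratio of -0.97 (-1.09 to -0.85). This is just under the 2-fold limit, which the interval spans. TXNRD1 (ENSG00000198431.15, chromosome 12 from 104215779 to 104350305, plus strand), the cytosolic thioredoxin reductase, was at 81.07 and 82.48 FPKM. Its log2 ratio of 0.02 (-0.02 to 0.06) had an interval that includes 0, and it was -0.18 with the TMM factors. TXN, the thioredoxin that TXNRD1 reduces, was at 233.28 FPKM without Dox and 103.96 FPKM with Dox, a log2 ratio of -1.17 (-1.23 to -1.10). The FPKM ratio of TXNRD1 to TXN was accordingly 0.348 without Dox and 0.793 with Dox.

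The other peroxiredoxins were much closer between the libraries than PRDX1. PRDX2, PRDX3, PRDX4 and PRDX6 had log2 ratios from -0.45 for PRDX6 to -0.20 for PRDX3. PRDX5, which is found in mitochondria and peroxisomes among other places, was at 286.07 FPKM without Dox and 378.99 FPKM with Dox, a log2 ratio of 0.41 (0.36 to 0.45). PRDX1 made up 29.2% of the summed FPKM of the 6 genes without Dox and 8.42% with Dox. The 5 genes other than PRDX1 summed to 908.54 and 890.25 FPKM. PRDX1 was thus the highest peroxiredoxin without Dox, and with Dox its 81.88 FPKM stood beside 82.91 FPKM for PRDX6, with overlapping counting intervals.

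**Figure D2:**
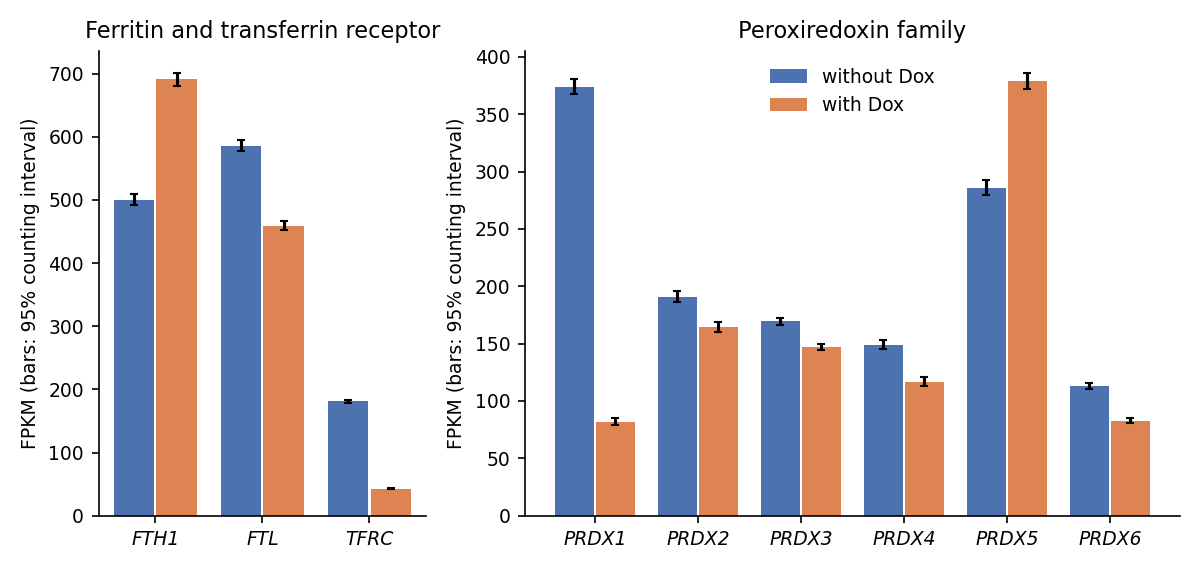
FPKM of the ferritin subunits and the transferrin receptor TFRC (left) and of the 6 peroxiredoxins (right) in each library, with 95% counting intervals. FTH1 is higher and FTL and TFRC are lower with Dox, and PRDX1 goes from 374.10 to 81.88 FPKM while PRDX5 goes from 286.07 to 378.99 FPKM.

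NQO1 and HMOX1, the genes most often used as NRF2 readouts, were both lower with Dox. NQO1 (ENSG00000181019.12, chromosome 16 from 69706996 to 69726951, minus strand), a quinone reductase, was at 33.32 FPKM without Dox and 15.38 FPKM with Dox, from 1417.69 and 688 counts. Its log2 ratio was -1.11 (-1.24 to -0.98), an interval that spans the 2-fold limit. Of the tested genes, 5.09% had a lower ratio. HMOX1 (ENSG00000100292.16, chromosome 22 from 35380361 to 35394214, plus strand), the inducible heme oxygenase that releases iron from heme, was at 13.60 FPKM without Dox and 7.20 FPKM with Dox, from 978 and 549 counts. Its log2 ratio was -0.91 (-1.06 to -0.76), an interval that spans the 2-fold limit. HMOX2, the constitutive enzyme, was at 66.31 and 31.26 FPKM, a log2 ratio of -1.08 (-1.17 to -0.99). The share of HMOX1 in the summed FPKM of both heme oxygenases was 17.0% without Dox and 18.7% with Dox. BACH1, a repressor of HMOX1 that heme inactivates, was at 9.78 and 18.92 FPKM, a log2 ratio of 0.94.

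**Figure D3:**
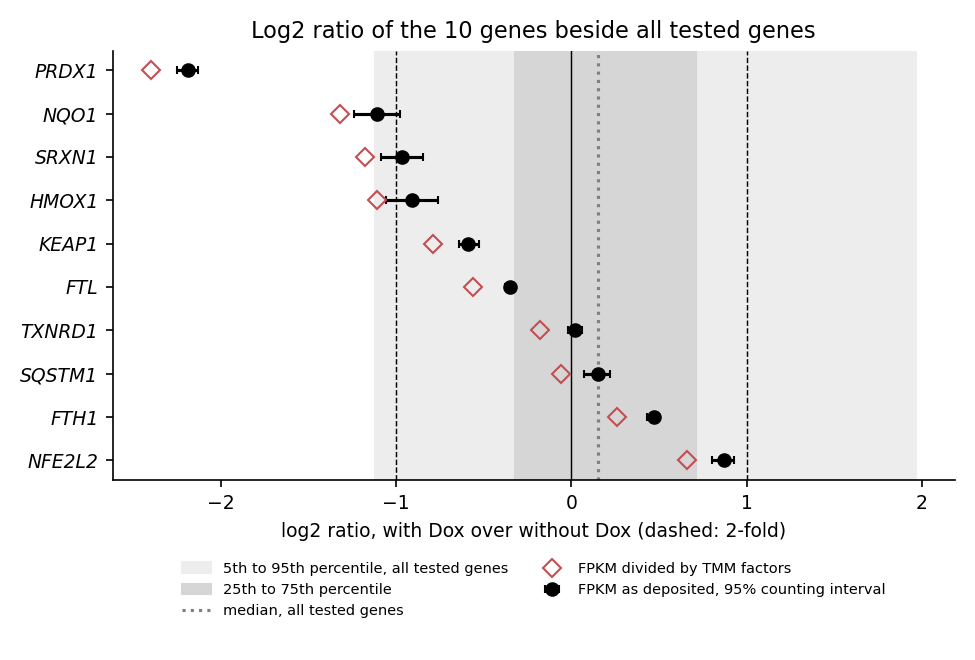
Log2 ratio (with Dox over without Dox) of the 10 genes with 95% counting intervals (filled circles) and after division by the TMM factors (open diamonds), over the percentile bands and the median of all tested genes. The bands and the median are those of the FPKM as deposited and belong to the circles only. With the TMM factors the median of all tested genes was -0.05, and no band is drawn for the diamonds. PRDX1, at -2.19, lies outside the band from the 5th to the 95th percentile, which runs from -1.12 to 1.97.

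The ferritin subunits were listed in opposite directions. Ferritin is a protein shell that stores iron, in which the heavy subunit, from FTH1, oxidizes iron and the light subunit, from FTL, helps its mineralization. FTH1 (ENSG00000167996.15, chromosome 11 from 61959718 to 61967660, minus strand) was at 500.51 FPKM without Dox and 691.01 FPKM with Dox, a log2 ratio of 0.47 (0.43 to 0.50). FTL (ENSG00000087086.14, chromosome 19 from 48965301 to 48966878, plus strand) was at 585.78 FPKM without Dox and 459.25 FPKM with Dox, a log2 ratio of -0.35 (-0.38 to -0.32). Neither passed 2-fold. They ranked 205 and 178 among all genes by FPKM without Dox and 148 and 205 with Dox. The FPKM ratio of FTH1 to FTL was 0.854 (0.835 to 0.875) without Dox and 1.5 (1.47 to 1.54) with Dox, and FTH1 went from 46.1% to 60.1% of their sum. The sum of both was 1086.29 FPKM without Dox and 1150.26 FPKM with Dox. Ferritin genes have many processed pseudogenes, so reads could be split among them. The 13 rows named as FTH1 pseudogenes or relatives held 9.39 and 6.01 counts in all and the 5 FTL pseudogene rows held 0, which does not show whether pseudogene reads were assigned to the parent genes. BEST1, which overlaps 5798 bases of the FTH1 locus on the opposite strand, held 16.42 expected counts without Dox and 921.52 with Dox. FTH1 itself was listed with 12024.15 and 17907.43 counts. Whether the library kit marks strand is not given in the sources used here, and the part of BEST1 reads in the FTH1 values was not tested.

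Ferritin and the transferrin receptor are also controlled after transcription. Iron regulatory proteins bind a hairpin, the iron-responsive element, in these RNAs when iron is scarce, which blocks translation of ferritin and protects the TFRC RNA from decay. The element was searched in the GENCODE release 29 transcripts as C, 5 bases, the loop CAGTGN and 5 bases able to pair with the first 5, G-U pairs included. It was found in 0.741% of the 83129 protein-coding transcripts, and in the first 300 bases of 0.112%. An element with another loop or with a mismatch among the 5 pairs would be missed. The elements found in FTH1, FTL and TFRC are shown because they mark the shared control of these RNAs. The capitals mark the bulged C and the 6 bases of the loop. The FTH1 element lies at chr11:61967573-61967602 (minus strand) and the FTL element at chr19:48965335-48965364 (plus strand), both in the 5′ UTR in exon 1 of 4.
FTH1: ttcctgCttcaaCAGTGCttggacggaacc
FTL: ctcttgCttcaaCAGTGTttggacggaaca
The 4 elements found in TFRC lie in the 3′ UTR in exon 19 of 19, on the minus strand, at chr3:196050978-196051007, chr3:196050574-196050603, chr3:196050509-196050538 and chr3:196050462-196050491, in the order of the transcript.
TFRC element 1: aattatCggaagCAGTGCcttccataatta
TFRC element 2: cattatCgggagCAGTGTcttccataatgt
TFRC element 3: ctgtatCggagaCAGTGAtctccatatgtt
TFRC element 4: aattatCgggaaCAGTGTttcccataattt
TFRC, the receptor for iron-loaded transferrin, was at 181.12 FPKM without Dox and 42.43 FPKM with Dox, a log2 ratio of -2.09 (-2.13 to -2.06). The FPKM ratio of TFRC to FTH1 was 0.362 without Dox and 0.0614 with Dox. IREB2 and ACO1, the genes of the iron regulatory proteins, had log2 ratios of -0.11 and -0.13. The binding of these proteins was not measured.

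The list of heme and iron handling genes held 25 genes, of which 22 were tested. None was called higher and 4 were called lower, beside 17.0% and 6.41% of all tested genes, with a list median of -0.14. The 4 were TFRC, HMOX2, TFR2 and STEAP3, a ferrireductase of endosomes that was at 13.99 and 5.42 FPKM (log2 ratio -1.35). NCOA4, the receptor that takes ferritin into autophagy, was at 74.81 and 75.16 FPKM. The iron exporter SLC40A1 was at 3.47 and 3.07 FPKM, and the mitochondrial ferritin gene FTMT was listed with 0 counts in both libraries.

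SQSTM1 (ENSG00000161011.19, chromosome 5 from 179806398 to 179838078, plus strand) was close between the libraries. It was at 27.23 FPKM without Dox and 30.12 FPKM with Dox, from 2415.48 and 2854.90 counts. Its log2 ratio was 0.15 (0.07 to 0.22), equal to the median of all tested genes, and it was -0.06 with the TMM factors. C5orf45 and MGAT4B overlap the locus on the opposite strand, with 1326.33 and 2303.90 counts for C5orf45 and 1453.48 and 956.53 for MGAT4B. Of a list of 14 other autophagy receptors and partners, 13 were tested. Called higher were 4 (30.8%) and lower 0, beside 17.0% and 6.41% of all tested genes, and 3 were called higher with the TMM factors, beside 13.1%. The list median was 0.67, and the log2 ratios ran from -0.43 for TBK1, a kinase of these receptors, to 1.54. OPTN was at 20.93 and 60.94 FPKM (log2 ratio 1.54), MAP1LC3B at 17.93 and 44.50 FPKM (1.31), CALCOCO2 at 39.62 and 92.66 FPKM (1.22) and NBR1 at 28.19 and 62.25 FPKM (1.14). OPTN, CALCOCO2 and NBR1 are receptors like SQSTM1, and MAP1LC3B is one of the ubiquitin-like proteins that they bind.

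The order of the levels changed with these values. Without Dox it ran from FTL and FTH1 through PRDX1, TXNRD1, KEAP1, NQO1, NFE2L2, SQSTM1 and SRXN1 to HMOX1. With Dox it ran from FTH1 and FTL through TXNRD1, PRDX1, NFE2L2, KEAP1, SQSTM1, NQO1 and SRXN1 to HMOX1. The counting intervals of neighbours overlapped for NFE2L2 and SQSTM1 without Dox, and for TXNRD1 and PRDX1 and for SRXN1 and HMOX1 with Dox.

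Among the 18 partners and regulators of NRF2, 16 were tested. Of these, 1 (6.25%) was called higher and 3 (18.8%) lower, beside 17.0% and 6.41% of all tested genes, and the median of 0.22 was 0.02 with the TMM factors. NFE2L1, the NRF2 relative that controls proteasome genes, was at 77.26 FPKM without Dox and 291.43 FPKM with Dox, a log2 ratio of 1.91 (1.88 to 1.94). The FPKM ratio of NFE2L1 to NFE2L2 was 2.81 without Dox and 5.79 with Dox. DPP3, a peptidase that competes for KEAP1, was at 59.18 and 15.41 FPKM, a log2 ratio of -1.93. MAFK, a small MAF partner, was at 12.25 and 5.18 FPKM (-1.23), while MAFF and MAFG had log2 ratios of 0.04 and 0.35. TRIM21, a ubiquitin ligase reported to act on SQSTM1, was at 12.73 and 6.0 FPKM (-1.07). CUL3 and RBX1, which form the ligase that KEAP1 serves, had log2 ratios of -0.39 and -0.80.

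Of the 38 other NRF2 target genes, 27 were tested, 2 (7.41%) were called higher and 3 (11.1%) lower, beside 17.0% and 6.41% of all tested genes. With the TMM factors 8 were called lower, beside 10.3% of all tested genes. Their median log2 ratio was -0.43, beside 0.15 for all tested genes, and 19 of the 27 were below 0. SLC7A11, the cystine transporter, stood apart from the rest of the list at 2.15 FPKM without Dox and 32.50 FPKM with Dox, a log2 ratio of 3.86 (3.76 to 3.96). SLC7A11 is also a target of ATF4, the transcription factor of the amino acid stress response, and the part of either factor in its level was not tested. The other gene called higher was ABCC2, at 0.46 and 1.34 FPKM (log2 ratio 1.36), close to the filter of 1 FPKM. With a pseudocount of 1 FPKM, SLC7A11 alone was called higher. IDH1, at 15.26 and 30.52 FPKM (1.0), fell just short of the 2-fold limit. The 3 called lower were TXN, ABCC4, a multidrug exporter at 9.97 and 4.45 FPKM (log2 ratio -1.15), and TKT, the transketolase of the pentose phosphate pathway, at 200.59 and 94.75 FPKM (-1.08). GSR, which reduces glutathione with NADPH, was at 32.11 and 16.02 FPKM. GCLC and GCLM, the subunits of the ligase for glutathione synthesis, had log2 ratios of -0.68 and -0.77. The counts of GCLM were closer, at 482 and 397, while its mean transcript length went from 3121.37 to 4119.91 bases.

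The thioredoxin and peroxiredoxin list held 16 genes without TXNRD1, SRXN1 and PRDX1. Of its 15 tested genes, 1 was called higher, SESN2, and 1 lower, TXN (6.67% each), beside 17.0% and 6.41% of all tested genes. The median was -0.37. SESN2, a stress-induced sestrin, was at 6.87 and 172.87 FPKM. GLRX, a glutaredoxin, was at 41.65 and 25.92 FPKM (log2 ratio -0.68). Among superoxide dismutases, catalase and glutathione peroxidases, 6 of 11 genes were tested and none was called. CAT was at 38.62 and 56.08 FPKM (0.54), SOD2 at 37.65 and 23.40 FPKM (-0.68) and GPX4, which reduces lipid peroxides, at 147.96 and 157.30 FPKM (0.09). The counts of SOD2 were closer, at 3713.47 and 3306.36, while its mean transcript length went from 2390.8 to 3145.55 bases. The list median was 0.07, and it was -0.14 with the TMM factors. GPX1 was listed with 6 and 0 counts, and whether its reads were lost in counting was not tested.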

How the data were processed

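RNA from 1 library without Dox and 1 with Dox was poly(A)-selected and sequenced as paired reads of 150 bases. The authors deposited, per gene, the expected count, TPM and FPKM, with mean and effective transcript length, in the layout of an RSEM gene table; the submitters' processing notes name HISAT2 2.1.0, StringTie 1.3.4d, Bowtie 0.12.2 and hg19, without roles. Of 204675 transcripts listed, 202888 matched GENCODE release 29, and the printed coordinates of genes and iron-responsive elements are its GRCh38 positions. Those of the antioxidant response element cores come from the RefSeq promoter windows.

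Log2 ratios used FPKM plus 0.1 for genes at 1 FPKM or more in 1 library. For edgeR 4.0.16 (R 4.3.3), expected counts were rounded, and a gene needed 10 counts in the sum of both libraries. DESeq2 1.42.0 gave size factors. Python 3.11.15, pandas 2.3.3, numpy 2.4.6, scipy 1.17.1 and matplotlib 3.10.9 did the rest. A count of 3 corresponds to 0.0653 CPM without Dox and 0.0616 CPM with Dox, and the deposited expected counts set the intervals. The ratio, interval and edgeR steps were tested on simulated data.

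The genes and lists were chosen with earlier results of these data known. Named genes are the 10 genes, SRD5A1, pseudogenes with at least 100 counts, and from each list up to 4 genes with the largest absolute log2 ratio among those at 5 FPKM or more in the higher library. Other genes named, among them BACH1, BEST1 and the peroxiredoxins, were chosen after their values were seen. Alternatives covered the pseudocount, the filter, the scaling, pseudogene rows and the assumed coefficient.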

Additional observations from a re-analysis of the deposited data

How the results depend on the processing

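With TPM, the median log2 ratio of the 10 genes was -0.37, and 7 of the 111 tested genes of the pathway lists were called lower in place of 12, beside 5.26% of all tested genes in place of 6.41%. With the TMM factors, 4 of the 10 genes were called lower, their median was -0.68 and 20 genes of the pathway lists were lower, beside 10.3%. With DESeq2 size factors on the counts, 4 of the 10 were lower, beside 10.1%, and the median was -0.67, beside -0.05 for all tested genes. With an assumed coefficient of 0.2, edgeR called 4 of the 10, all lower, beside 15.5% of all genes it tested, both directions together. In these settings and with other pseudocounts, PRDX1 stayed between -2.40 and -2.09 and NQO1 between -1.35 and -1.01, past 2-fold in each. NFE2L2 (0.66 to 0.97) and FTH1 (0.26 to 0.56) stayed above 0, and KEAP1, HMOX1, SRXN1 and FTL below 0. TXNRD1 and SQSTM1 were below 0 with TMM and DESeq2 factors, at -0.18 and -0.06 with TMM. With pseudogene rows the ferritin ratio was 0.855 and 1.51; TPM cannot move it. Over all tested genes, calls were 2521 higher and 953 lower, against 2834 and 781 with TPM, 1946 and 1527 with TMM, 1980 and 1495 with DESeq2 factors, 1606 and 651 with a pseudocount of 1 FPKM, 4735 and 1897 with no filter, and 1256 and 603 at 5 FPKM or more. The edgeR calls were 166 in all, and 3089 at a coefficient of 0.2. No paired analysis was possible because each condition had a single library. The lowest count among the 10 genes was 549, yet the counting intervals of NQO1, HMOX1 and SRXN1 spanned the 2-fold limit.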

Other observations

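KEAP1 belongs to the BTB-kelch family, adaptors that bring substrates to CUL3 ligases. All 16 relatives on the list were tested, 2 were called higher and 2 lower (12.5% each), beside 17.0% and 6.41% of all tested genes, and the median log2 ratio was 0.25, or 0.04 with the TMM factors. KLHL24 was at 4.02 FPKM without Dox and 25.41 FPKM with Dox, a log2 ratio of 2.63. KLHL22, an adaptor reported to act on the GATOR complex of mTORC1 signaling, was at 4.27 and 10.74 FPKM (1.31). KLHL12, which acts in COPII vesicle assembly, was at 16.18 and 32.38 FPKM (1.0), just short of the 2-fold limit. Called lower were KLHL25, at 1.55 and 0.72 FPKM (-1.01), and KLHL18. With TPM or with a pseudocount of 1 FPKM, 0 of the 16 were called lower. KLHL18 was at 13.73 and 6.62 FPKM (-1.04), although its counts went from 1854.94 to 1335, since its mean transcript length in the tables went from 3185.97 to 4381.11 bases.

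A like gap between counts and FPKM was seen for redox genes. GLRX2, a glutaredoxin, was listed with 1435.32 and 1337.04 counts but with 23.17 and 12.15 FPKM, and its mean transcript length went from 1592.07 to 2504.02 bases. NQO2, the relative of NQO1, was listed with 1055.87 and 971.31 counts but with 11.64 and 6.03 FPKM, and its length went from 2219.24 to 3549.35 bases. These genes were chosen after their values were seen. Among the 10 genes, the mean length differed by 2.79% at most, for KEAP1, so their ratios on counts and on FPKM stay close. Which transcripts account for the longer means was not tested, since the tables give values per gene.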
